A study of Homo sapiens with 12 samples.

Results

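The genes examined were those of the cytosolic ribosomal proteins, the protein parts of the ribosomes that translate nuclear-encoded messages. Members were the protein-coding rows whose name starts with RPL or RPS and a number, with RPLP and a number, or with RPSA, leaving out the RPS6K kinases and names with a Y. The rule found 89 of 58302 rows (19817 of them protein-coding). Of these, 77 were canonical ribosomal protein genes, with 43 of the large subunit, 31 of the small subunit and 3 of the P stalk. The other members were 8 paralogs of canonical genes (RPL3L, RPL7L1, RPL10L, RPL22L1, RPL26L1, RPL36AL, RPL39L and RPS27L), 3 read-through genes that join a ribosomal protein gene to its neighbour (RPL17-C18orf32, RPL36A-HNRNPH2 and RPS10-NUDT3), and RPS19BP1, which is named for binding the RPS19 protein and is not itself part of the ribosome.

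RNA sequencing was done on 3 established cell lines of the human prostate, with 4 libraries each. BPH-1 is a benign prostatic epithelial line that was immortalised with a viral T antigen, and PC3 and DU145 are prostate cancer (PCa) lines, first grown from a bone and a brain metastasis. All 3 lines had the genotype WT and carried no transgene or treatment in the labels, and all were grown in Dulbecco's modified Eagle's medium with 10% fetal bovine serum, penicillin and streptomycin. Each line is 1 cultured population, and nothing in the sources used here says that its 4 libraries came from separate cultures, so p-values below measure the spread between libraries, which may be technical. The paper compared the benign BPH-1 with the PCa line PC3 to find differentially expressed chloride channel genes.

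A ribosome joins a small subunit, which reads the messenger RNA, to a large subunit, which makes the peptide bond. Each subunit is built on ribosomal RNA in the nucleolus from proteins that are made in near-equal numbers, since the mature particle holds most of them once, and the P stalk recruits the translation factors. Ribosomal protein messages are among the most abundant of a growing cell, start in most cases with a C followed by a run of pyrimidines (the 5′ terminal oligopyrimidine, or TOP, start) through which mTOR and LARP1 control their translation, and have left many processed pseudogenes across the genome.

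RefSeq promoters (GRCh38.p14) were given for 70 of the 89 members, and they show the TOP start in the letters themselves. Below, 30 bases are printed 5′ to 3′ for members on which the comparisons turn and for the paralogs of 3 of them, 20 before the annotated start and 10 from it on, with the pyrimidine run at the start in capitals where it holds a C followed by at least 4 C or T.
RPSA (chr3:39406700-39406729, plus strand): cgtcatttcctgccgcctgtCTTTTCCgtg
RPS24 (chr10:78033843-78033872, plus strand): ttggccggcgaatcgtggttCTCTTTTCCT
RPL26 (chr17:8383184-8383213, minus strand): accggaagcagcgtgtagttCTCTTCCCTT
RPL22 (chr1:6199586-6199615, minus strand): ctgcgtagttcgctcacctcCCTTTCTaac
RPL22L1 (chr3:170870186-170870215, minus strand): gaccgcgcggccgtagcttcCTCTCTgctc
RPS27 (chr1:153990742-153990771, plus strand): gcaggatttccgctttcgctCCTTTCCggc
RPS27L (chr15:63157468-63157497, minus strand): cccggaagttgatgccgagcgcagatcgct
RPL36A (chrX:101390991-101391020, plus strand): ttccgtttgcctcgcggtttCTTTCTTTCC
RPL36AL (chr14:49620617-49620646, minus strand): tccgcctgtttcttccctttcctgttaggc
The run was present in RPSA, RPS24, RPL26, RPL22, RPS27 and RPL36A and in the paralog RPL22L1, and the windows of RPS27L and RPL36AL did not hold it at this position. Over all members with a promoter, 48 of 87 annotated starts held such a run on the strand of the gene (55.2%), against 4.07% of the 35116 starts of all genes. Counted by gene, 46 of 62 canonical members and 1 of 6 paralogs had at least 1 start with the run.

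The deposited values were fragments per kilobase of exon and per sequencing depth (FPKM, a level per length). The depth, found from the steps between low values, was 12950665 to 16309559 reads per library. The labels were checked against markers. BPH-1 libraries held the basal keratins KRT5 (120.2 to 175 FPKM) and KRT14 (162 to 238 FPKM), neither of which passed 0.499 FPKM in DU145 or 0.0381 FPKM in PC3. The epithelial marker EPCAM was 57.7 to 63.2 FPKM in BPH-1 and 6.92 to 11.1 FPKM in PC3 but near 0 in DU145 (0.166 to 0.573 FPKM). CDH1 was 16.3 to 44.6 FPKM in BPH-1 and low in both cancer lines. It was 0.0851 to 0.297 FPKM in DU145 and 0.427 to 1.42 FPKM in PC3. The epithelial keratins KRT8, KRT18 and KRT19 were present in every line, with KRT18 at 52.8 to 99.2 FPKM in DU145 and KRT19 at 164 to 307 FPKM in PC3. The luminal marker KLK3 was listed at 0 in all 12 libraries. Of markers of other cells, COL1A2 of fibroblasts was at most 0.14 FPKM, COL1A1 at most 3.84 FPKM, the endothelial PECAM1 at most 2.28 FPKM and the leukocyte gene PTPRC at most 1.54 FPKM in any library. The mesenchymal VIM was 51.4 to 68.9 FPKM in DU145 and 96.8 to 144 FPKM in PC3, against 1.11 to 1.32 FPKM in BPH-1, and its part in the results below was not tested. Libraries also differed within a line by a trend with GC content. Relative to the line's mean, high-GC genes stood above low-GC genes by 0.40 and 0.72 on the log2 scale in DU145 replicates 1 and 3. They stood below them by 0.68 and 0.43 in replicates 2 and 4. That contrast ranged from -0.33 to 0.46 in PC3 and from -0.10 to 0.08 in BPH-1. It was taken within each line and does not compare the lines. Values given with the GC trend divided out are from a fit after a smooth curve of GC content was removed from each library. That curve included the library's overall level, so these values mix a shift in scaling with the GC trend. In PC3 against BPH-1 the median of all genes tested moved from -0.127 to -0.004.

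Ribosomal protein genes spanned a wide range in FPKM, a level per length of annotated exon. The canonical members had mean levels over the 12 libraries from 2.99 FPKM (RPL21) to 367 FPKM (RPL11), with a median of 39.3 FPKM. The 5 highest of all members were RPL11, RPL36AL (257 FPKM), RPS4X (222 FPKM), RPS12 (202 FPKM) and RPL8 (178 FPKM), and the 5 lowest were RPL10L (listed at 0), RPL3L (0.053 FPKM), RPS27L (0.970 FPKM), RPL21 and RPL39 (3.45 FPKM). These levels do not measure the proteins' numbers. The length that gave whole reads counts every distinct annotated exon, overlapping ones each in full, and for the median canonical member it was 1.71 times the merged exon length, which lowers its FPKM by the same factor. RPL21 and RPL39 were also among the 17 members with over 50% of their reads, counted with those of their pseudogenes, on the pseudogenes.

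Summed over the 89 members, the genes held a similar share of the FPKM in the 3 lines, with the widest spread in DU145. The share was 1.76, 1.595, 1.75 and 1.598% in BPH-1 replicates 1 to 4, 2.003, 1.45, 2.16 and 1.47% in DU145 and 1.62, 1.64, 1.79 and 1.93% in PC3, so the lines overlapped. Within DU145, the pair of libraries with the upward GC trend (replicates 1 and 3) stood well above the other pair. Mitochondrially encoded genes made up 25.03% to 39.7% of the summed FPKM per library. Of the FPKM of protein-coding genes without these, members held 3.06 to 3.48% in BPH-1, 3.43 to 4.47% in DU145 and 3.68 to 4.19% in PC3. By that measure all PC3 libraries lay above all BPH-1 libraries, and DU145 overlapped BPH-1. As a share of reads, members held 2.20, 1.92, 2.16 and 2.05% in BPH-1, 3.02, 2.17, 3.23 and 2.28% in DU145 and 2.56, 2.59, 2.97 and 3.11% in PC3. On that scale all 4 PC3 libraries lay above all 4 BPH-1 libraries, while DU145 replicate 2 (2.17%) fell inside the BPH-1 range. The part of the GC trend in these shares was not tested.

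**Figure D1:**
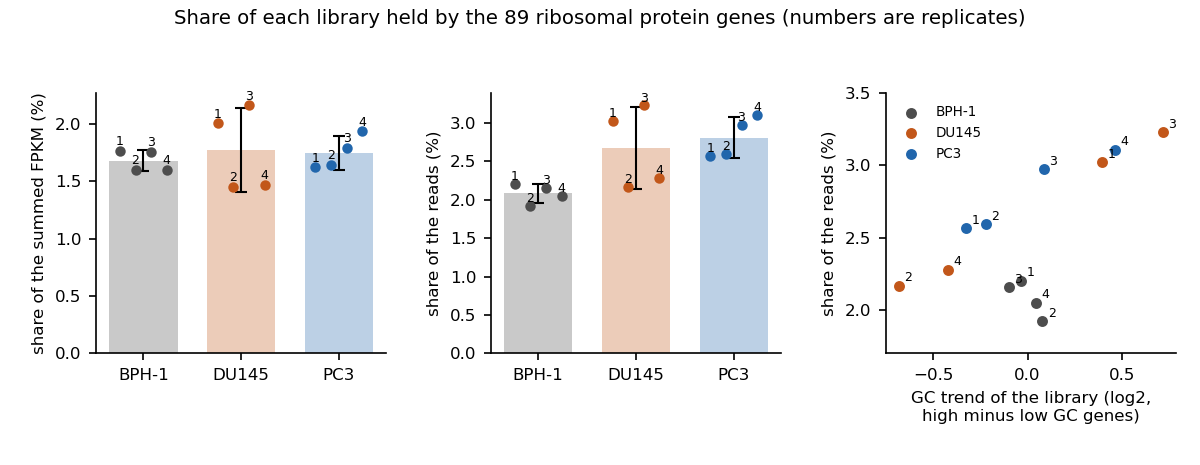
Share of each library held by the 89 ribosomal protein genes. The left panel gives the percent of the summed FPKM and the middle panel the percent of the reads, with 1 point per library (numbers are replicates), bars at the mean and error bars of 1 SD (n = 4). The right panel sets the percent of the reads against the GC trend of the library (log2, high-GC minus low-GC genes, relative to the line's mean). DU145 replicates 1 and 3 have a trend above 0 and shares of 3.02% and 3.23%. Replicates 2 and 4 of that line have a trend below 0 and shares of 2.17% and 2.28%.

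In PC3, more ribosomal protein genes were higher than lower relative to BPH-1, with RPS28, RPL39L, RPL8, RPL30 and RPL29 the largest rises. RPS28 and RPL39L are taken up with their pseudogene and paralog. Of 87 members that passed the filter on low values (all but RPL3L and RPL10L), 37 were higher and 15 lower in PC3 at a Benjamini-Hochberg adjusted p under 0.05 by limma, against 27.2% higher and 40.5% lower of all 16345 genes tested. The members' median log2 fold change was 0.13, against -0.13 for all genes tested. By subunit, 19 of 43 large-subunit genes were higher and 9 lower (median 0.17), and 13 of 31 small-subunit genes were higher and 5 lower (median 0.13). The split rests on the scaling of the libraries. With FPKM rescaled to the same sum it became 27 higher and 32 lower with a median of -0.13. The shares of all genes were then 21.0% and 48.3%. With libraries scaled to the same upper quartile it became 48 higher and 3 lower with a median of 0.50. The shares of all genes were then 37.3% and 30.9%. These scalings moved the median of all genes to -0.28 and 0.09.

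Of the small subunit, RPSA and RPS24 rose most in PC3 after RPS28. Gene positions are those of the deposited table (GRCh38). RPSA (ENSG00000168028, chr3:39406689-39412542, plus strand), a protein of the small subunit also known as a laminin receptor precursor, was at 43.4, 38.2, 42.5 and 41.0 FPKM in BPH-1 replicates 1 to 4 (the order used throughout), 36.7, 23.3, 39.4 and 23.3 in DU145 and 120.5, 129, 143 and 165 in PC3. Every PC3 library stood above every library of the other lines. In bulk RNA, fewer cells with a message and less of it per cell cannot be told apart. Its log2 fold change (on the log2(FPKM + 1) scale used throughout) was 1.72 (SE 0.11, adjusted p = 1.6e-06) against BPH-1 and 2.18 (SE 0.21, adjusted p = 3.1e-05) against DU145, of which 0.80 was left with pseudogene reads added. RPS24 (ENSG00000138326, chr10:78033760-78056812, plus strand), a small-subunit protein mutated in some Diamond-Blackfan anaemia, was at 78.4, 63.5, 73.1 and 65.2 FPKM in BPH-1, 75.4, 67.9, 81.1 and 64.9 in DU145 and 243, 182, 266 and 264 in PC3. BPH-1 and DU145 overlapped and all PC3 libraries stood above both, with log2 fold changes of 1.74 (SE 0.14, adjusted p = 5.3e-06) against BPH-1 and 0.04 (SE 0.14, adjusted p = 0.8) for DU145 against BPH-1. Both genes start with the pyrimidine run printed above.

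On the large subunit, RPL8, a protein near the peptidyl transferase centre, rose from 61.4, 55.8, 62.8 and 64.3 FPKM in BPH-1 to 216, 221, 269.9 and 291 in PC3, a log2 fold change of 2.003 (SE 0.12, adjusted p = 8.6e-07). RPL30 rose from 32.6 ± 1.56 to 123 ± 9.86 FPKM (SD, n = 4), a log2 fold change of 1.88 (SE 0.09, adjusted p = 2.7e-07). PC3 and BPH-1 did not overlap for either gene. RPL29 was higher in every PC3 library (72.5, 78.5, 42.9 and 49.2 FPKM) than in any BPH-1 library (19.0, 16.6, 14.4 and 17.7), but PC3 replicates 1 and 2 were well above replicates 3 and 4. Its log2 fold change was 1.75 (SE 0.20, adjusted p = 4.2e-05).

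The largest falls among canonical members in PC3 were RPL26, RPL9, RPS6 and RPS3A. RPL26 (ENSG00000161970, chr17:8377520-8383213, minus strand), a protein of the large subunit, was at 50.5, 60.1, 65.9 and 50.8 FPKM in BPH-1, 87.1, 70.0, 94.2 and 73.1 in DU145 and 22.8, 25.7, 29.9 and 23.5 in PC3. PC3 was lower than both other lines without overlap, with a log2 fold change of -1.13 (SE 0.13, adjusted p = 4.7e-05) against BPH-1 (-0.67 with the GC trend divided out) and -1.63 (SE 0.15, adjusted p = 2.4e-05) against DU145. RPS6, whose protein is the classical substrate of the S6 kinases, fell from 149.9, 134, 148 and 119.9 FPKM in BPH-1 to 84.4, 79.0, 81.2 and 85.3 in PC3, a log2 fold change of -0.73 (SE 0.10, adjusted p = 0.00014), and DU145 (122, 115, 96.1 and 96.2 FPKM) overlapped BPH-1. That call was lost with upper-quartile scaling (-0.34) and with the GC trend divided out (-0.29). RPS3A fell to 7.41, 9.75, 9.65 and 6.25 FPKM from 14.2, 14.2, 11.7 and 14.04, a log2 fold change of -0.67 (SE 0.15, adjusted p = 0.003), which was lost with upper-quartile scaling (-0.31) and became 0.10 with the GC trend divided out. RPL9 is taken up with the pseudogenes below.

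In DU145, ribosomal protein genes called against BPH-1 were mostly higher, and the rises were led by RPS28, RPL39L, RPS27, RPL22L1 and RPL8 (261, 146, 295 and 187 FPKM in DU145). Of 87 members tested, 30 (34.5%) were higher and 6 (6.90%) lower, against 30.3% higher and 32.3% lower of all 17070 genes tested. The share higher was thus near that of all genes, and the share lower was smaller. The members' median log2 fold change was 0.33, against -0.03 for all genes tested. Of the large subunit, 16 of 43 genes were higher and 2 lower, and of the small subunit 11 of 31 were higher and 2 lower. With FPKM rescaled to the same sum, 22 members were higher and 12 lower, against 24.3% and 38.6% of all genes tested. The counts and the median differed between the 2 pairs of DU145 libraries that the GC trend sets apart. With replicates 1 and 3 alone, 58 members were higher and 6 lower (median 0.64), against 34.7% and 37.3% of all genes tested. With replicates 2 and 4 alone, 27 were higher and 16 lower (median 0.06), against 29.2% and 29.8%. This split of the libraries was chosen after the data were seen.

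**Figure D2:**
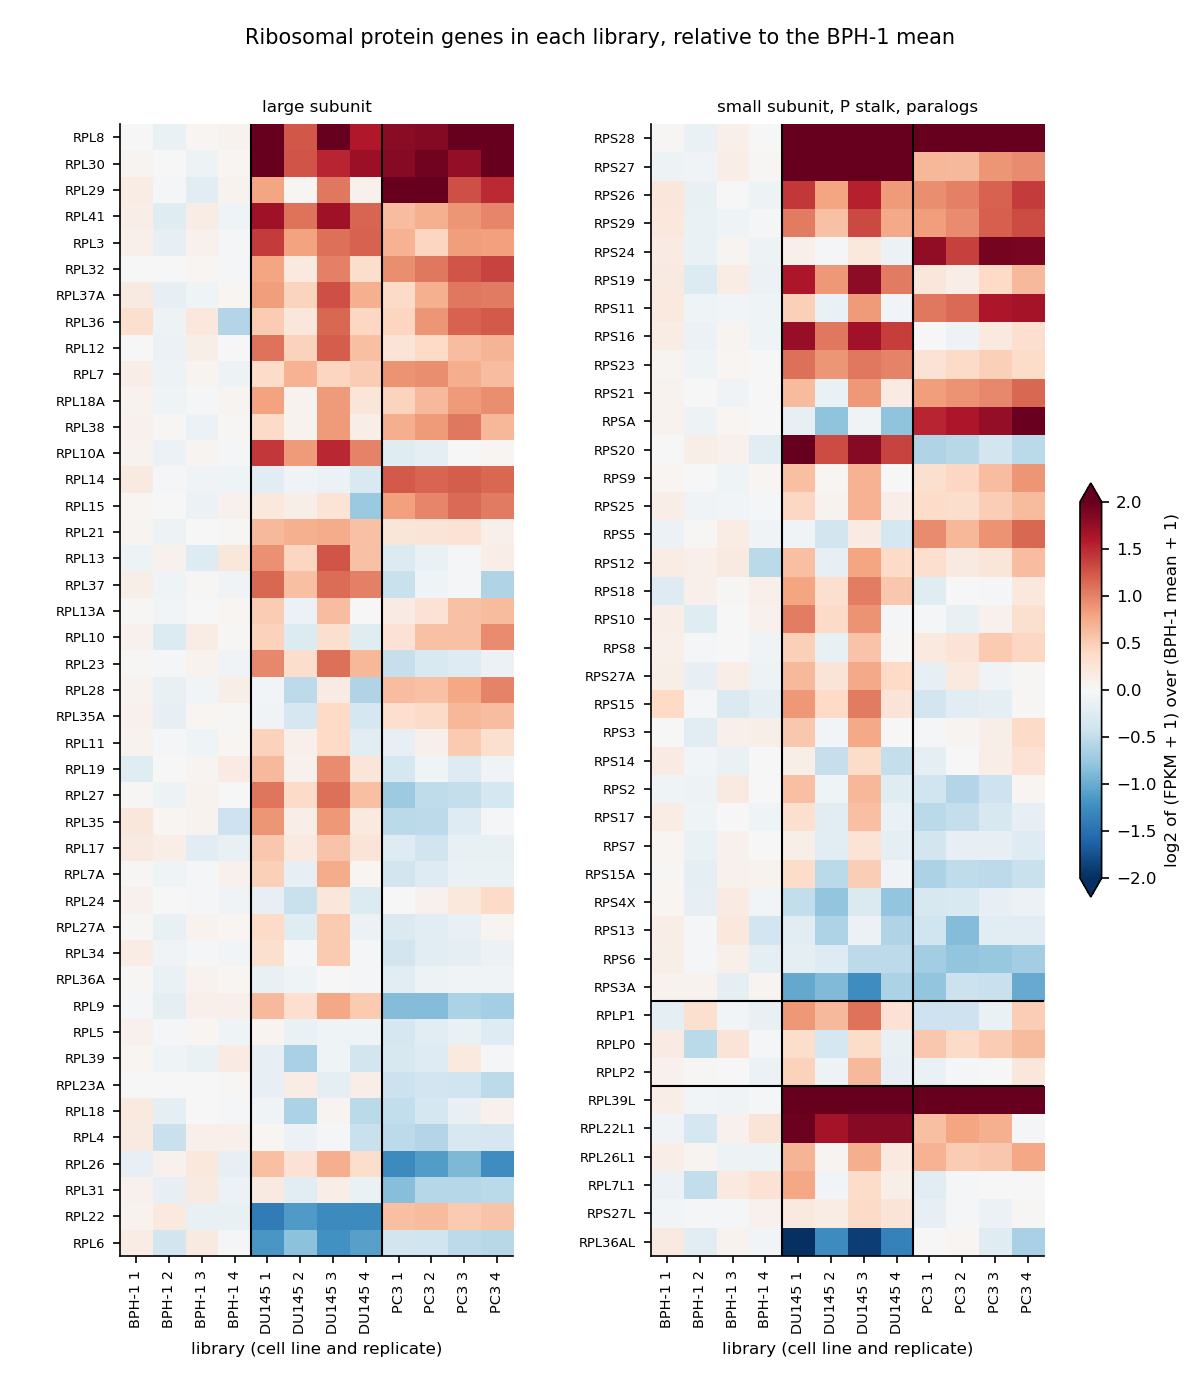
Canonical ribosomal protein genes and the 6 tested paralogs (rows) in the 12 libraries (columns), as log2 of (FPKM + 1) over the BPH-1 mean + 1, with rows sorted within each role by the mean of the PC3 and DU145 libraries and colours ending at -2 and 2. RPS28 and RPL39L are above the scale's end in all PC3 and DU145 libraries, RPS27 in the 4 DU145 libraries, and most other rows are redder in DU145 replicates 1 and 3 than in replicates 2 and 4.

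RPS27 (ENSG00000177954, chr1:153990759-153992150, plus strand), a zinc-finger protein of the small subunit, rose far more in DU145 than in PC3. It was at 6.97, 7.22, 8.44 and 7.70 FPKM in BPH-1, 71.7, 43.0, 80.2 and 53.7 in DU145 and 12.6, 12.4, 14.9 and 15.5 in PC3. The 3 lines did not overlap, with PC3 between the others. The log2 fold change was 2.84 (SE 0.20, adjusted p = 2.8e-06) in DU145 and 0.79 (SE 0.11, adjusted p = 0.0002) in PC3. RPS16, RPS19 and RPS20 of the small subunit also rose in DU145. RPS16 rose from 22.8 ± 2.02 to 66.1 ± 14.1 FPKM (SD, n = 4), a log2 fold change of 1.47 (SE 0.18, adjusted p = 7.5e-05). RPS19, the gene most often mutated in Diamond-Blackfan anaemia, was at 29.6, 21.5, 29.1 and 24.1 FPKM in BPH-1, 82.3, 48.6, 92.2 and 54.5 in DU145 and 30.6, 28.7, 34.9 and 41.3 in PC3. The DU145 libraries lay above all others, with a log2 fold change of 1.34 (SE 0.23, adjusted p = 0.00059), and PC3 overlapped BPH-1, with 0.36 (SE 0.15, adjusted p = 0.052). With the GC trend divided out, the rise of RPS19 in DU145 was 0.85.

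The members lower in DU145 were RPL36A-HNRNPH2, RPL36AL, RPL22, RPL6, RPS3A and RPS4X. RPL22 (ENSG00000116251, chr1:6181269-6209389, minus strand), an RNA-binding protein of the large subunit, was at 44.0, 48.4, 37.5 and 37.8 FPKM in BPH-1, 15.2, 18.6, 16.8 and 16.9 in DU145 and 64.0, 65.6, 61.0 and 62.9 in PC3. Every DU145 library was below every BPH-1 library, and every PC3 library above them. The log2 fold change was -1.26 (SE 0.15, adjusted p = 5.6e-05) in DU145 and 0.59 (SE 0.11, adjusted p = 0.00081) in PC3, where it ranged from 0.32 with FPKM rescaled to the same sum to 0.98 with upper-quartile scaling. RPL6 of the large subunit fell from 98.3 ± 16.2 to 46.5 ± 5.90 FPKM (SD, n = 4) in DU145, a log2 fold change of -1.06 (SE 0.17, adjusted p = 0.00041). RPS3A was at 6.18, 6.89, 5.12 and 8.41 FPKM in DU145, a log2 fold change of -0.94 (SE 0.17, adjusted p = 0.0009) against BPH-1, which became -0.04 with the GC trend divided out. RPS4X, the X-linked form of a small-subunit protein, fell from 264 ± 26.2 to 177 ± 30.5 FPKM (SD, n = 4), a log2 fold change of -0.58 (SE 0.16, adjusted p = 0.0099) that did not pass with upper-quartile scaling (-0.29) or with the GC trend divided out (-0.47).

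Most of the called members were called in only 1 of the 2 cancer lines or in both the same way. Both comparisons use the same BPH-1 libraries, so the calls are set side by side and not tested for overlap. Against BPH-1, 15 members were higher in both lines, 3 were lower in both, and 6 were called in opposite directions, which is 17.2%, 3.45% and 6.90% of the 87 members tested, against 13.9%, 25.9% and 6.41% of the 15858 genes tested in both comparisons. The share called in opposite directions was thus near that of all genes. Those higher in both were the canonical RPL3, RPL7, RPL8, RPL12, RPL30, RPL32, RPL37A, RPL41, RPS23, RPS26, RPS27, RPS28 and RPS29 and the paralogs RPL22L1 and RPL39L. Those lower in both were RPL6, RPS3A and RPL36A-HNRNPH2. In PC3 alone a further 21 members were called higher and 7 lower, in DU145 alone 10 higher and 2 lower, and 23 were called in neither. Of all genes, 9.24% were higher and 11.9% lower in PC3 alone, 9.33% were higher and 6.26% lower in DU145 alone, and 17.1% were called in neither. Between the cancer lines themselves, 13 of 86 members were higher and 26 lower in PC3 than in DU145, against 20.0% and 28.3% of all 16210 genes tested, with a median of -0.12 against -0.05. The largest rises in PC3 over DU145 were RPSA (2.18), RPL22 (1.85), RPS24 (1.697), RPL36AL (1.43) and RPL14 (1.36), and the largest falls RPS20 (-2.16), RPS27 (-2.05), RPL26 (-1.63), RPS16 (-1.36) and RPL9 (-1.33), all log2 fold changes that passed the test. That of RPSA was 0.80 with pseudogene reads added. With the GC trend divided out, 23 members were higher and 20 lower, against 28.0% and 30.9% of all genes tested in that fit. With DU145 replicates 2 and 4 alone, the direction of the members' median turned (0.16). There, 28 were higher and 21 lower, against 20.6% and 32.0% of all genes tested. With replicates 1 and 3 alone the members' median was -0.31. In that fit 12 were higher and 40 lower, against 23.6% and 31.4% of all genes tested.

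The members called in opposite directions were RPL22, which was higher in PC3 and lower in DU145, and RPL9, RPL23, RPL26, RPL27 and RPS20, which were lower in PC3 and higher in DU145. They were chosen for these values, which fix a difference between PC3 and DU145. RPS20, a small-subunit protein, was at 18.3, 19.8, 19.4 and 15.4 FPKM in BPH-1, 83.5, 46.3, 67.1 and 48.2 in DU145 and 11.7, 12.1, 13.96 and 12.3 in PC3. The 3 lines were separate, and the log2 fold change between the cancer lines, -2.16 (SE 0.20, adjusted p = 2.4e-05), was the largest fall of any member in PC3 against DU145. Against BPH-1 it was 1.66 (SE 0.21, adjusted p = 8.4e-05) in DU145 and -0.51 (SE 0.11, adjusted p = 0.0029) in PC3, and the fall in PC3 was lost with upper-quartile scaling (-0.13) and with the GC trend divided out (-0.30). RPL23 and RPL27, both of the large subunit and both on chromosome 17, differed in the same direction. RPL27 was at 48.7, 44.3, 49.9 and 47.6 FPKM in BPH-1, 101, 62.1, 104 and 73.0 in DU145 and 28.5, 33.2, 34.1 and 37.3 in PC3, and its log2 fold change between PC3 and DU145 was -1.30 (SE 0.19, adjusted p = 0.00043). Its fall in PC3 against BPH-1 was lost with upper-quartile scaling (-0.12). RPL23, whose protein is known to bind MDM2, was at 21.8 ± 0.986 FPKM in BPH-1, 38.7 ± 8.72 in DU145 and 17.8 ± 1.82 in PC3 (SD, n = 4), and its log2 fold change between PC3 and DU145 was -1.05 (SE 0.18, adjusted p = 0.0011). The small fall of RPL23 in PC3 against BPH-1, -0.28 (SE 0.10, adjusted p = 0.034), lost its call without BPH-1 replicate 1 (-0.27), BPH-1 replicate 3 (-0.26) or PC3 replicate 1 (-0.22), 2 (-0.28) or 3 (-0.29) and turned to 0.10 with upper-quartile scaling.

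**Figure D3:**
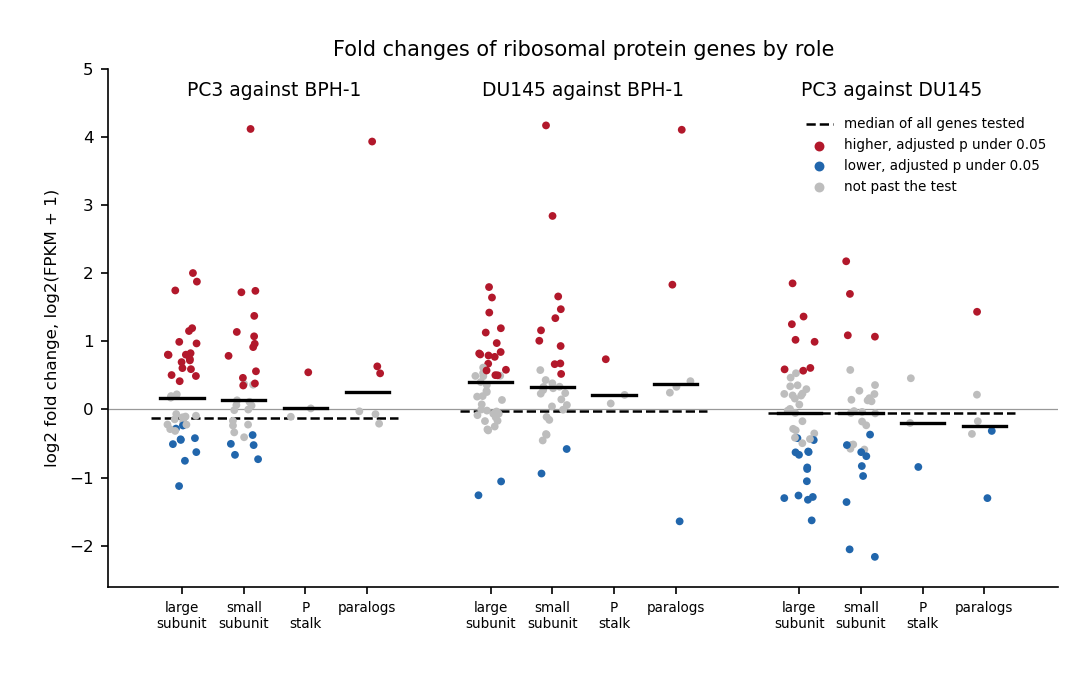
Log2 fold changes of canonical members and paralogs by role in the 3 comparisons (log2(FPKM + 1) scale), with 1 point per gene, thick lines at the median of each role and dashed lines at the median of all genes tested. Red and blue points pass an adjusted p of 0.05, and the medians of the large and small subunits lie at 0.17 and 0.13 in PC3 and at 0.40 and 0.33 in DU145 against BPH-1.

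Of the P stalk, RPLP0 was higher in PC3 and RPLP1 in DU145 than in BPH-1. RPLP0, the base of the stalk, was at 65.9, 40.2, 70.7 and 58.0 FPKM in BPH-1, 75.4, 45.6, 76.3 and 53.1 in DU145 and 86.1, 76.8, 83.5 and 91.5 in PC3. The PC3 libraries stood above the rest, with a log2 fold change of 0.55 (SE 0.17, adjusted p = 0.016) against BPH-1 that was lost with FPKM rescaled to the same sum (0.28) and with the GC trend divided out (0.39). RPLP1 and RPLP2 are the acidic proteins that pair on the stalk. RPLP1 was higher in DU145, with a log2 fold change of 0.74 (SE 0.20, adjusted p = 0.0086) that was lost with FPKM rescaled to the same sum (0.49), though DU145 replicate 4 (84.5 FPKM) was under BPH-1 replicate 2 (85.8 FPKM), and RPLP2 was not called in either line (0.02 in PC3 and 0.21 in DU145). RPLP1 was also lower in PC3 than in DU145 (-0.84, adjusted p = 0.018 by limma), a call lost without PC3 replicate 1 (-0.74) or 2 (-0.75) and with upper-quartile scaling (-0.75). RPL5 and RPL11, which with 5S ribosomal RNA bind MDM2 when ribosome assembly fails, had log2 fold changes of -0.24 (SE 0.09, adjusted p = 0.041) and 0.20 (SE 0.14, adjusted p = 0.25) in PC3 and of -0.06 (SE 0.13, adjusted p = 0.68) and 0.19 (SE 0.17, adjusted p = 0.35) in DU145. The small fall of RPL5 in PC3 turned to 0.16 with upper-quartile scaling and to 0.75 with the GC trend divided out, which also moved RPL5 in DU145 to 1.09. Its call in PC3 was lost without BPH-1 replicate 1 (-0.21) or 3 (-0.22) or PC3 replicate 1 (-0.20) or 2 (-0.24).

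Of the 6 tested paralogs, RPL22L1, RPL26L1 and RPL39L were higher in PC3 than in BPH-1, and in DU145 RPL22L1 and RPL39L were higher and RPL36AL lower. A ratio of 2 genes in the same library does not depend on how libraries are scaled. RPL39L, a paralog of RPL39 best known from male germ cells, was at 0.487, 0.295, 0.290 and 0.337 FPKM in BPH-1 (6 to 10 reads), 28.3, 15.5, 33.6 and 16.6 in DU145 and 19.4, 15.1, 22.7 and 22.3 in PC3. Every library of the cancer lines was far above BPH-1, with log2 fold changes of 3.93 (SE 0.14, adjusted p = 5.2e-08) in PC3 and 4.11 (SE 0.25, adjusted p = 9.6e-07) in DU145. RPL39 itself was at 3.86 ± 0.449 FPKM in BPH-1, 2.95 ± 0.654 in DU145 and 3.55 ± 0.758 in PC3 (SD, n = 4), with overlapping lines. RPL39L held 7.08% to 10.8% of the pair's FPKM in BPH-1 libraries, 85.6% to 90.3% in DU145 and 83.2% to 87.1% in PC3. Of the reads of RPL39 and its pseudogenes, 87.9% lay on the pseudogenes in BPH-1, 86.2% in DU145 and 89.5% in PC3, while RPL39L had no pseudogene reads, so the pair's shares would differ if pseudogene reads were counted.

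RPL22L1, the paralog that can take the place of RPL22 in the ribosome, was at 1.26, 0.862, 1.54 and 1.85 FPKM in BPH-1, 8.26, 6.52, 7.37 and 7.43 in DU145 and 2.61, 3.101, 2.88 and 1.32 in PC3. It was highest in all 4 DU145 libraries, the line in which RPL22 was lowest. The log2 fold change of RPL22L1 was 1.83 (SE 0.17, adjusted p = 1.5e-05) in DU145 against BPH-1 and -1.30 (SE 0.20, adjusted p = 0.0006) in PC3 against DU145, and 3.14 in DU145 against BPH-1 with the GC trend divided out. Its share of the pair's FPKM was 25.9% to 35.2% in DU145, against 1.75% to 4.67% in BPH-1 and 2.05% to 4.51% in PC3. The smaller rise of RPL22L1 in PC3 (0.53) had overlapping lines and lost its call when any 1 library but BPH-1 replicate 4 or PC3 replicate 4 was left out (0.42 to 0.71 over all 8).

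RPL26L1 kept a larger share of its pair in PC3, where RPL26 was low. It was at 10.01, 9.37, 8.27 and 8.33 FPKM in BPH-1, 14.996, 9.36, 15.6 and 10.4 in DU145 and 15.2, 13.2, 13.5 and 16.04 in PC3. PC3 was above BPH-1 without overlap, with a log2 fold change of 0.63 (SE 0.11, adjusted p = 0.00067), and RPL26L1 held 31.1% to 40.6% of the pair in PC3, against 11.1% to 16.5% in BPH-1 and 11.8% to 14.7% in DU145. RPL36AL, the autosomal copy of the X-linked RPL36A, was at 395, 303, 367 and 337 FPKM in BPH-1, 80.6, 146, 94.2 and 137 in DU145 and 348, 358, 297 and 224 in PC3. All DU145 libraries were below all libraries of the other lines. The log2 fold change in DU145 was -1.64 (SE 0.21, adjusted p = 9.4e-05), but -0.30 and not called with the GC trend divided out. RPL36A was at 8.29 ± 0.585, 7.89 ± 0.408 and 7.58 ± 0.449 FPKM (SD, n = 4) in BPH-1, DU145 and PC3.

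Of the remaining pairs, RPS27L was low in all lines (0.813 to 0.999 FPKM in BPH-1, 1.09 to 1.44 in DU145 and 0.675 to 0.911 in PC3) and held 10.4% of its pair in BPH-1, 2.02% in DU145 and 5.45% in PC3 (means of 4 libraries). RPL7L1, a nucleolar relative of RPL7, was at 13.6 ± 3.35, 17.5 ± 4.76 and 13.1 ± 0.950 FPKM (SD, n = 4) in BPH-1, DU145 and PC3 and was not called in any comparison. The partners RPL3, RPL7 and RPL10 had log2 fold changes of 0.70, 0.80 and 0.61 in PC3 and of 1.13, 0.50 and 0.08 in DU145, and of these values that of RPL10 in DU145 did not pass the test. The tissue-restricted RPL10L (testis) was listed at 0 in all 12 libraries. RPL3L (striated muscle) had 2 to 11 reads in BPH-1, 0 to 2 in PC3 and was listed at 0 in DU145, where a count of 0 allows up to 3 reads per library (counting error only).

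**Figure D4:**
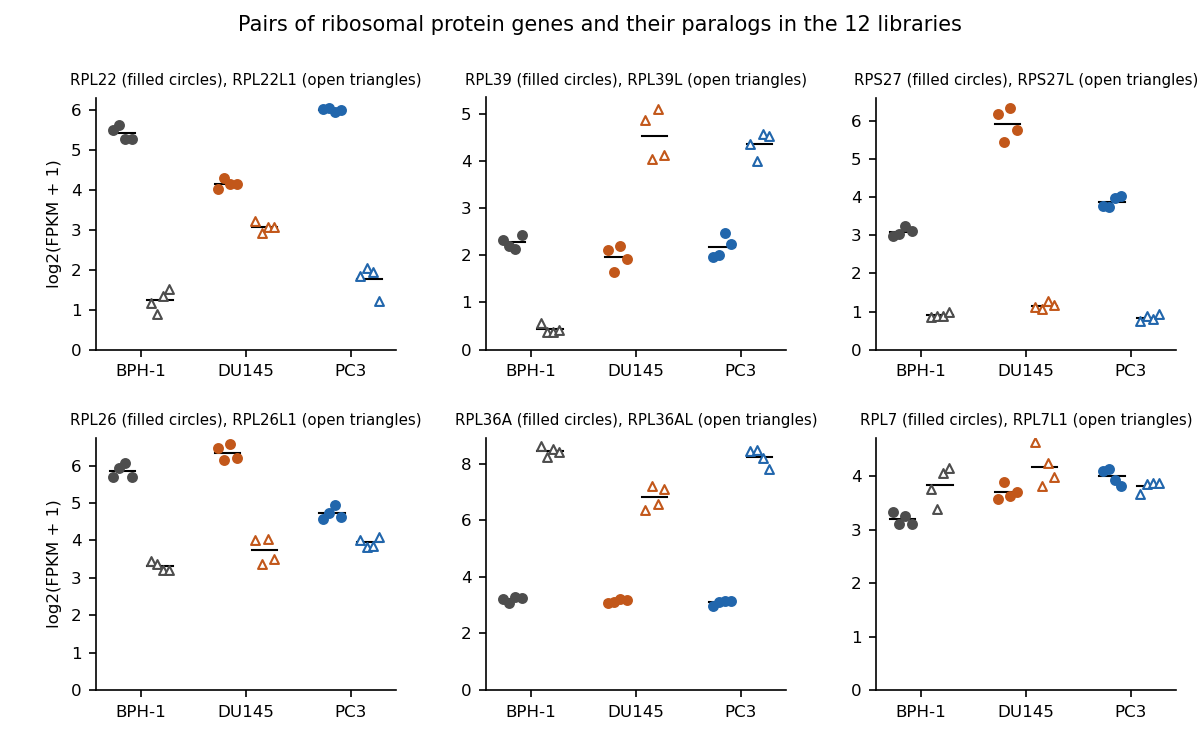
Levels of 6 pairs of canonical genes (filled circles) and paralogs (open triangles) as log2(FPKM + 1), with 1 point per library (4 per line) and black lines at the mean. RPL39L is above RPL39 in PC3 and DU145 and below it in BPH-1, RPL22 is lowest and RPL22L1 highest in DU145, and RPL26 is lowest in PC3.

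Pseudogenes bear on these values, because reads that match a processed copy can be counted there. Of the members, 77 had at least 1 of 1144 pseudogenes named after them in the deposited table, and these pseudogenes held 24.8% to 27.3% of the reads of members and pseudogenes in every library. Adding a member's pseudogene reads to its own (an alternative chosen after the data were seen) left most calls in place. In PC3 against BPH-1, 51 of the 52 members called alone were called in the same direction, in DU145 against BPH-1 36 of 36, and in PC3 against DU145 36 of 39.

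The values that moved most were those of RPS28, RPSA and RPL9. RPS28 (ENSG00000233927, chr19:8321158-8323340, plus strand) was at 0.623, 0.447, 0.7002 and 0.599 FPKM in BPH-1 (27 to 43 reads), 28.5, 23.7, 38.7 and 22.3 in DU145 and 26.8, 24.7, 25.3 and 30.02 in PC3. Its log2 fold changes of 4.12 (SE 0.11, adjusted p = 1e-08) in PC3 and 4.17 (SE 0.19, adjusted p = 2.4e-07) in DU145 were the largest of any member. Its pseudogene RPS28P7 on chromosome 11, however, held 987 to 1707 reads in BPH-1, 463 to 952 in DU145 and 1650 to 2082 in PC3. With both added up the log2 fold change was 1.45 in PC3 and 0.80 in DU145, still past the test. The part of read placement in the low RPS28 value of BPH-1 was not tested further.

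For RPSA, 51.4% of the reads of gene and pseudogenes lay on pseudogenes in BPH-1, 53.7% in PC3 and 82.7% in DU145, and over all libraries 51.7% of these pseudogene reads were on RPSAP58 on chromosome 19. In DU145 the gene alone had a log2 fold change of -0.46 (SE 0.20, adjusted p = 0.07) against BPH-1, and with its pseudogenes 0.999, which passed the test. The rise in PC3 was 1.802 with pseudogenes, close to the value of the gene alone, while the difference between PC3 and DU145 shrank from 2.18 to 0.80. RPL9 had over 50% of such reads on pseudogenes in every line (83.4% in BPH-1, 92.1% in DU145 and 93.4% in PC3). The gene alone fell in PC3 from 4.33, 3.85, 4.84 and 4.83 to 1.99, 2.01, 2.53 and 2.42 FPKM (-0.75 (SE 0.12, adjusted p = 0.00037)), but the sum rose (0.31), and both passed the test. With the GC trend divided out, the gene alone was level with BPH-1 (7.1e-04). In DU145 the sum rose more (1.68) than the gene alone (0.57).

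**Figure D5:**
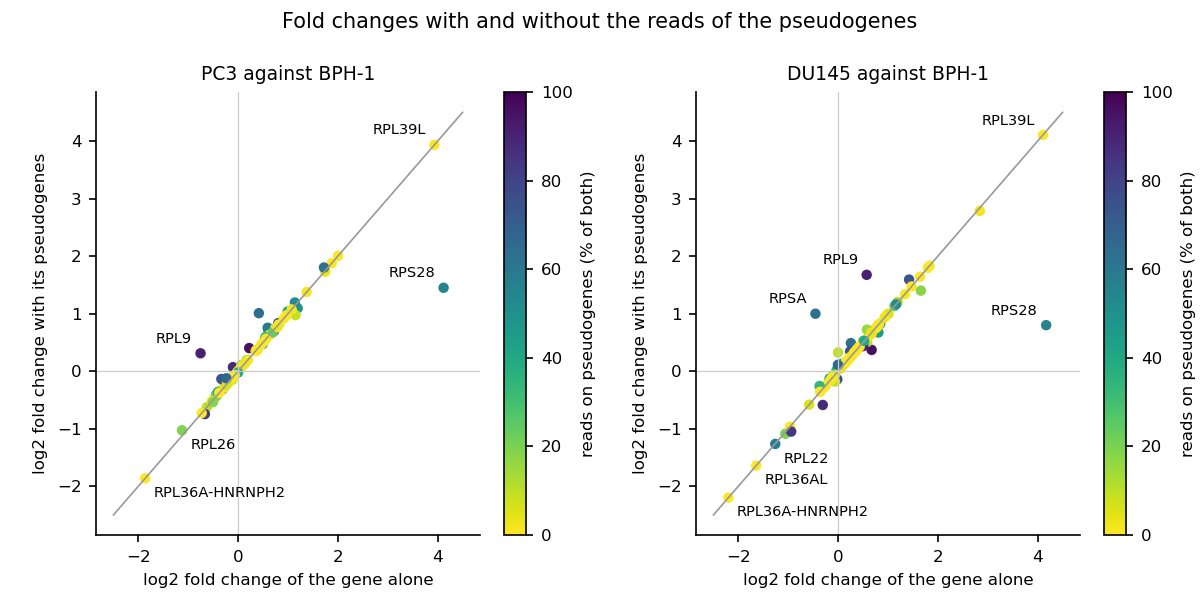
Log2 fold change of each tested member alone (horizontal) and with the reads of its pseudogenes added (vertical), for PC3 and DU145 against BPH-1, coloured by the percent of the reads on pseudogenes over all libraries. Most points lie on the diagonal line of equal values, and RPS28 drops from 4.12 to 1.45 in PC3, RPL9 moves from -0.75 to 0.31 in PC3 and RPSA from -0.46 to 0.999 in DU145.

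Canonical members lay on 21 chromosomes, and on some chromosomes most members were called in the same direction. This grouping was made after the values were seen and is a description. The 5 on chromosome 3 before position 91000000 of GRCh38, the short arm, were RPL14, RPL15, RPL29, RPL32 and RPSA. All 5 were higher in PC3 than in BPH-1 (median log2 fold change 1.19) and than in DU145 (1.25), and 1 of them was higher in DU145 than in BPH-1. Of all 425 genes tested in that region, 50.8% were higher and 17.4% lower in PC3 than in BPH-1 (median 0.32). The shares of genes anywhere were 27.2% and 40.5%. In PC3 against DU145, 40.1% of the 431 genes tested there were higher and 14.6% lower (median 0.38), against 20.0% and 28.3% anywhere. In DU145 against BPH-1, 32.9% were higher and 24.4% lower there (median 0.10), against 30.3% and 32.3% anywhere. RPL14 illustrates the pattern, with 13.9, 11.9, 11.5 and 11.4 FPKM in BPH-1, 10.4, 11.6, 11.1 and 9.67 in DU145 and 29.9, 28.6, 29.4 and 28.1 in PC3. PC3 stood apart from both other lines, with a log2 fold change of 1.19 (SE 0.10, adjusted p = 5.7e-06) against BPH-1. On chromosome 8, RPL7, RPL8 and RPL30 were higher in both cancer lines, while RPS20 was higher in DU145 and lower in PC3. The 552 genes tested on chromosome 8 had a median of -0.07 in PC3 and the 579 in DU145 one of 0.01, with 33.2% higher and 38.2% lower in PC3 and 34.0% higher and 32.8% lower in DU145.

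Chromosome 19 holds the most canonical members, 12 of them. Of these, 8 were higher and 0 lower in PC3 (median 0.64), and 4 were higher and 0 lower in DU145 (median 0.41). Of all 1110 genes tested on chromosome 19 in PC3, 40.2% were higher and 25.6% lower (median 0.14), and in DU145 38.6% were higher and 19.1% lower (median 0.21). On chromosome 17, 1 of the 6 members was higher and 4 were lower in PC3, and 3 were higher and 0 lower in DU145. Of all genes tested there, 32.6% were higher and 33.0% lower in PC3 (median 0.01), and 39.5% were higher and 19.8% lower in DU145 (median 0.22). The gene copy number of these lines was not analysed here.

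Members with and without the TOP run at their start both included rises and falls. In PC3 against BPH-1, 21 of 48 members with the run were higher and 5 lower (median 0.21), and 7 of 21 without it were higher and 4 lower (median -0.17), against 27.2% higher and 40.5% lower of all genes tested. In DU145 the counts were 14 higher and 3 lower with the run (median 0.29) and 9 higher and 3 lower without it (median 0.42), against 30.3% and 32.3% of all genes tested. The difference between these groups was not tested.

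Other genes of the translation apparatus included rises and falls as well. FAU, which is made fused to a ubiquitin-like protein, and RACK1, a scaffold on the small subunit, are ribosomal protein genes whose names the rule did not take. Neither was called, with log2 fold changes of 0.23 for FAU and 0.16 for RACK1 in PC3 and of 0.32 and 0.28 in DU145. Of 14 other translation genes with a TOP start, 2 were higher and 3 lower (median 0.00) in PC3 and 3 were higher and 2 lower (median 0.13) in DU145. The shares of all genes tested were 27.2% higher and 40.5% lower in PC3 and 30.3% and 32.3% in DU145. EEF1A1 and EEF2, the main elongation factors, were not called (0.03 and -0.02 in PC3). NPM1, a nucleolar chaperone, was lower in both lines, at 112 to 159.9 FPKM in BPH-1, 36.2 to 90.3 in DU145 and 59.5 to 102 in PC3, with log2 fold changes of -0.81 (SE 0.20, adjusted p = 0.0053) in PC3 and -1.31 (SE 0.28, adjusted p = 0.0023) in DU145.

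Among 21 genes of nucleolar ribosome assembly, 4 were higher and 7 lower (median -0.10) in PC3 and 6 were higher and 4 lower (median 0.33) in DU145. Among 6 genes of RNA polymerase I, which makes the ribosomal RNA, 3 were higher and 2 lower (median 0.28) in PC3 and 0 were higher and 2 lower (median -0.27) in DU145. Among 7 chaperones dedicated to ribosomal proteins, 1 was higher and 3 lower (median -0.17) in PC3 and 1 was higher and 2 lower (median 0.12) in DU145. Among 78 mitochondrial ribosomal proteins, which build the separate ribosome of the mitochondrion, 25 were higher and 18 lower (median 0.03) in PC3 and 22 were higher and 13 lower (median 0.20) in DU145. None of these lists was tested as a set. For all genes tested against BPH-1, the shares were 27.2% higher and 40.5% lower in PC3 and 30.3% and 32.3% in DU145. Of 11 regulators of ribosome production, 4 were higher and 4 lower (median -0.21) in PC3 and 3 were higher and 4 lower (median 0.02) in DU145. LARP1, which binds TOP messages, was at 41.6 to 49.1 FPKM in BPH-1, 62.4 to 71.6 in DU145 and 33.7 to 35.0 in PC3, without overlap, with log2 fold changes of 0.58 (SE 0.13, adjusted p = 0.0036) in DU145 and -0.38 (SE 0.09, adjusted p = 0.0041) in PC3. MYC, a transcription factor that drives ribosomal protein genes, ranged from 0.985 to 25.5 FPKM among the 4 BPH-1 libraries, 0.975 to 27.0 in DU145 and 1.29 to 30.3 in PC3, so the lines overlapped, and it was not called.

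The read-through members and RPS19BP1 complete the set. RPL36A-HNRNPH2 was lower in DU145, at 14.9, 2.53, 16.8 and 3.27 FPKM in BPH-1 and 0.386, 0.958, 1.69 and 0.311 in DU145, a log2 fold change of -2.20 (SE 0.53, adjusted p = 0.0049). In PC3 (0.563, 0.684, 0.601 and 4.74 FPKM) replicate 4 stood apart and overlapped BPH-1, and the log2 fold change of -1.86 (SE 0.62, adjusted p = 0.023) lost its call without BPH-1 replicate 1 (-1.54) or 3 (-1.48) or PC3 replicate 1 (-1.70), 2 (-1.73) or 3 (-1.71). BPH-1 replicates 1 and 3 were also several times above replicates 2 and 4. RPL17-C18orf32 was listed at 0 in BPH-1 replicate 2, DU145 replicate 2 and PC3 replicate 4 and reached 11.3 FPKM in DU145 replicate 4, and RPS10-NUDT3 was listed at 0 in DU145 replicates 1 and 2 and at 8.98 and 6.70 FPKM in replicates 3 and 4. Neither was called in any comparison. These genes share their exons with the canonical genes they join, whose reads the counting may have split. RPS19BP1 was at 5.66, 3.65, 5.31 and 3.57 FPKM in BPH-1 and 9.05, 7.77, 6.75 and 11.3 in PC3, a log2 fold change of 0.81 (SE 0.19, adjusted p = 0.0035) without overlap.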

How the data were processed

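The authors made the FPKM table from their reads, and the submitters' processing notes name CASAVA 1.8, HISAT2 2.1.0, edgeR and the genome build GRCh38. The counting program and its handling of strand and of reads that match several places are not given in the sources used here. The deposited header names no unit. The values came out as whole or near-whole reads in nearly all libraries for 69 of 89 members when each gene's length was the sum of its distinct GENCODE exons. They were therefore taken as FPKM, and reads of the other 20 are approximate.

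Each comparison was a limma-trend fit (limma 3.58.1, R 4.3.3) on log2(FPKM + 1) over the libraries of the 2 lines compared, across all genes with at least 10 reads in 4 libraries and 15 in all. Benjamini-Hochberg adjusted p-values under 0.05 over all genes tested were called. Fold changes on this scale understate low genes. Scripts were tested on simulated data. Named genes were the P stalk, RPSA, RPL5, RPL11, RPS19, RPS6, the paralog pairs, the read-through genes, the 5 highest and 5 lowest members and the 5 largest called rises and falls per comparison. Other members named, such as RPL15, RPL23, RPL27, RPL32 and RPL41, were chosen after their values were seen. Members, lists and tests were chosen with earlier results of these data known. Alternatives were other pseudocounts, filters, scalings and fits, a correction for GC content, voom on recovered reads, pseudogene reads added and each library left out. Replicate libraries differed beyond sampling noise and none was treated as a repeat deposit. Some genes of the lists are not reported here.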

Additional observations from a re-analysis of the deposited data

Results flagged for a closer look

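Of 150 groups of 4 libraries examined, 4 had a library set apart from the other 3, and chance flags about 1 group in 20. RPL7L1 was 11.7 FPKM in PC3 replicate 1, where the rest of that line lay at 13.5 to 13.6. RPS12 was 113 FPKM in BPH-1 replicate 4, where the rest of that line lay at 177 to 188. RPS3A was 11.7 FPKM in BPH-1 replicate 3, against 14.04 to 14.2 in the others. RPL36A-HNRNPH2 was 4.74 FPKM in PC3 replicate 4, against 0.563 to 0.684 in the others.

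A further 6 members were called in opposite directions against BPH-1 in PC3 and DU145, a choice that fixes most of the difference between the cancer lines, so that difference is given as a description. The log2 fold change of PC3 against DU145 was 1.85 for RPL22, -1.05 for RPL23, -1.63 for RPL26, -1.30 for RPL27, -1.33 for RPL9 and -2.16 for RPS20. The opposite call did not hold for all of them under every alternative. In PC3, RPL9 was called higher with pseudogene reads added (0.31), RPL23 turned to 0.10 with upper-quartile scaling, and RPS20 (-0.13) and RPL27 (-0.12) lost their calls with that scaling. In DU145, RPL26 (0.26) and RPL9 (0.36) lost theirs with FPKM rescaled to the same sum.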

How the results depend on the processing

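Of the counts and medians over members, those that moved most did so with the scaling of the libraries, the GC trend and the choice of DU145 libraries. With FPKM rescaled to the same sum, 32 members were lower in PC3 than in BPH-1 with a median of -0.13. In DU145, 12 were lower with a median of 0.10. Of all genes, 48.3% were lower in PC3 and 38.6% in DU145 in these fits. With upper-quartile scaling, 3 were lower in PC3 with a median of 0.50, the DU145 median was 0.62, and 14 were lower in PC3 than in DU145, against 17 with median-of-ratios scaling. The share of calls that were higher in PC3 than in BPH-1 was 71.2% in the fit as reported, 45.8% with the same sum and 94.1% with upper-quartile scaling, and in DU145 83.3%, 64.7% and 89.8%. With the GC trend divided out, the PC3 median against BPH-1 was 0.33. In that setting 23 members were higher in PC3 than in DU145, against 28.0% of all genes. The members' median stood above that of all genes in both comparisons with BPH-1 as reported and with the same sum, median-of-ratios, upper-quartile and GC settings, by 0.15 to 0.41 in PC3 and 0.14 to 0.49 in DU145. With DU145 replicates 1 and 3 alone, 58 members were higher in DU145 than in BPH-1 (median 0.64) and 40 lower in PC3 than in DU145. The shares of all genes were 34.7% and 31.4%. With replicates 2 and 4 alone, 16 were lower in DU145 than in BPH-1 (median 0.063), and 28 were higher in PC3 than in DU145 (median 0.16). The shares of all genes were 29.8% and 20.6%. The share held by members was 3.25%, 3.98% and 3.93% of the FPKM of protein-coding genes without the mitochondrial ones in BPH-1, DU145 and PC3, and 2.08%, 2.67% and 2.81% of reads. Leaving out 1 library at a time gave 36 to 38 members higher and 11 to 21 lower in PC3 than in BPH-1 (median 0.07 to 0.19), 26 to 41 and 6 to 7 in DU145 (median 0.21 to 0.44), and 11 to 18 and 19 to 30 in PC3 against DU145 (median -0.22 to -0.01). The causes were not tested. With GC divided out, single genes called in at least 1 of the 2 fits turned direction. In PC3 against BPH-1 these were RPLP2 (-0.29), RPL5 (0.75), RPL36A (0.66), RPL36AL (0.96), RPS27L (0.54), RPL9 (7.1e-04), RPS3A (0.10) and RPL23 (0.14). In DU145 against BPH-1 they were RPL5 (1.09) and RPL36A (0.86). A further 13 values turned direction in that setting without a call in either fit. With upper-quartile scaling RPL5 (0.16) and RPL23 (0.10) turned in PC3. With pseudogene reads added, RPL9 (0.31) turned in PC3, RPSA (0.999) in DU145, and RPL21 (0.032) and RPS28 (0.65) in PC3 against DU145. Over all gene results and alternatives, 2286 values kept direction and call, 113 lost the call and 84 gained it. Another 16 turned direction with a call in at least 1 of the 2 fits, and 91 turned without a call in either.

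Replicate numbers were shared by the lines, but libraries of the same number did not deviate together in every pair (correlations of -0.69 to 0.56, with 0.56 for replicate 2 of PC3 and DU145 and 0.12 for replicate 1 of PC3 and BPH-1), and fitting the number as a replicate block gave 36 members higher and 13 lower in PC3, 34 and 6 in DU145, and 12 and 18 in PC3 against DU145. A depth of 12950665 to 16309559 reads left RPL3L and RPL10L below the filter, and for members with many pseudogenes the level and the placement of reads cannot be told apart.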
